A study of Homo sapiens with 4 samples.

Results

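The genes described here encode the enzymes that write, copy and erase DNA methylation: DNMT1, DNMT3A and DNMT3B, the recruiting factor UHRF1, and TET1, TET2 and TET3. They were chosen by name, and each of the 7 symbols was found among the 61228 gene rows of the count files. All 7 were among the 19159 genes with enough counts to be tested. Transcripts were sequenced from H1792, an established human lung cancer line labelled wild type in genotype, after 96 h with the solvent DMSO (2 libraries) or with ACBI1 at a dose labelled 1 mM (2 libraries). ACBI1 is a PROTAC, a molecule that brings the VHL ubiquitin ligase to the SWI/SNF ATPases SMARCA2 and SMARCA4 and to the subunit PBRM1, so that they are degraded. A PROTAC is seldom used at millimolar doses, and counts cannot show whether the labelled unit is right. Both groups are the same line without a genetic change between them, and the comparison asks which transcripts differed when the degrader was present.

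In mammals, DNA methylation sits mostly on cytosines followed by guanine (CpG). After replication a CpG that was methylated before carries the mark on the old strand only. UHRF1 binds such sites and brings in DNMT1, which copies the mark to the new strand, while DNMT3A and DNMT3B place methyl groups on sites that had none. The TET enzymes oxidise methylcytosine, and the oxidised base is lost at replication or cut out by DNA repair. DNMT1 and UHRF1 are needed in S phase, and both are known targets of E2F factors, which drive genes for DNA replication.

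Counts assigned to genes summed to between 64281850 and 86010100 per library, so each of the 7 genes rested on at least 55 counts in each library. Mitochondrial genes held 5.31% to 6.85% of gene counts. Transcripts of SMARCA4 were at 284 and 216 CPM with DMSO and at 414 and 398 CPM with ACBI1. CPM scales each library to a common total, here adjusted by TMM factors. SMARCA4 did not pass the test used below (log2 change 0.70, edgeR adjusted p 0.0583). Nor did SMARCA2 (log2 change -0.40, adjusted p 0.163) or PBRM1 (0.10, adjusted p 0.734). Loss of the proteins, which is what ACBI1 causes, cannot be seen in these counts. The epithelial keratin KRT8 was at 155 and 192 CPM with DMSO and at 69.1 and 60.9 CPM with ACBI1. Of 9 epithelial and lung markers 5 were tested, and 1 of these, EPCAM, had a positive log2 change (1.32). EPCAM was at 5.38 and 2.78 CPM with DMSO and at 15.6 and 4.84 CPM with ACBI1, so the groups overlapped. The lung factor NKX2-1 was not counted in any library (0 counts, with a limit of 0.0335 to 0.0458 CPM by library), and the epithelial cadherin CDH1 reached at most 0.222 CPM. Of 10 markers of blood, endothelial and muscle cells, 9 stayed under 1 CPM in every library; PECAM1 was at 12.2 and 48.1 CPM with DMSO and at most 0.0458 CPM with ACBI1. The labels number the libraries as replicates but do not say that they came from separate cultures, so p-values measure the spread between these libraries only.

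The genes lie on 5 chromosomes of the GRCh38 assembly in GENCODE release 29. DNMT1 is at chr19:10133345-10231286 on the minus strand and UHRF1 at chr19:4903080-4962154 on the plus strand. DNMT3A is at chr2:25227855-25342590 on the minus strand and DNMT3B at chr20:32762385-32809356 on the plus strand. TET1 is at chr10:68560656-68694482, TET2 at chr4:105145875-105279816 and TET3 at chr2:73986404-74108176, all on the plus strand. Exons of other genes cover 0.847% of the exonic length of DNMT1 and 0% of that of the other 6, so few reads should be shared with a neighbour.

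The promoters of the 3 genes that changed are shown because they differ in a motif like that of E2F factors. RefSeq windows of 300 bases on GRCh38.p14, from 250 bases before a transcript start to 50 after it, were searched on both strands for 4 strings of 8 bases, TTTCGCGC, TTTGGCGC, TTTCCCGC and TTTGCCGC, which overlap no other motif searched. Matches are in capitals, as read on the strand of the gene, and each sequence runs 5′ to 3′.
DNMT1, 30 bases around the start, minus strand, chr19:10194937-10194966: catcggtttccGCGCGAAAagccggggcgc
UHRF1, 30 bases around its first start, plus strand, chr19:4909476-4909505: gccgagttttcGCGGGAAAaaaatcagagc
UHRF1, 250 bases before its second start, plus strand, chr19:4909894-4910143: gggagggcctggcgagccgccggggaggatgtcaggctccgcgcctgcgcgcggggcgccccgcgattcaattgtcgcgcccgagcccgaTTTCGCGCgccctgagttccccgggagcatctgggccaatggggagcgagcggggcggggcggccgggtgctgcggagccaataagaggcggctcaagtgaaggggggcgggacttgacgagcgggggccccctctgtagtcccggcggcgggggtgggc
TET2, 250 bases before its first start, plus strand, chr4:105145625-105145874: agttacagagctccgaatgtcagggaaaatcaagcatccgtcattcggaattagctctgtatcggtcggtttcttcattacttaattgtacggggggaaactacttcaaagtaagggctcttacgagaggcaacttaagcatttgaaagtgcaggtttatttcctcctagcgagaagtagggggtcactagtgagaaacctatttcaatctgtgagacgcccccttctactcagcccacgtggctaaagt
The string begins 2 bases before the start of DNMT1, and 14 and 160 bases before a start in 2 of 3 windows of UHRF1. No window of the other 5 genes held it, which says only that these letters are absent there. Of 35116 windows of this length, 3.31% held a match, and of 27305 genes 3.99% had one in any window. The number of CpG in a window varied within and between the genes. UHRF1 had 36, 40 and 46, DNMT1 30, TET2 13 and 35, TET3 45 and 33, and DNMT3A 18 to 46 over 6 windows. TET1 had 6 to 11 and the single window of DNMT3B 3, and the median over all windows was 14. The DNMT3B window, chr20:32779602-32779901, lies within the gene, whose start in GENCODE is at 32762385. The bases before that GENCODE start were not searched, so neither the CpG number nor the missing string describes them. The windows of DNMT1 and UHRF1 also lie within their genes, whose GENCODE starts are at 10231286 (minus strand) and 4903080. The bases before those starts were not searched either. A match is a description of the sequence and no evidence of binding.

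UHRF1 and DNMT1, which together maintain methylation, rose with ACBI1, TET2 fell, and the other 4 genes did not pass the test. A gene was called when its adjusted p in edgeR's quasi-likelihood test (Benjamini-Hochberg over all genes tested) was under 0.05. Of the 7 genes 3 were called, 2 higher and 1 lower, where the share over all 19159 genes was 17.4% in either direction, 6.75% higher and 10.6% lower. The groups did not overlap in any of the 7, and this was also so in 63.2% of all genes tested. The median log2 change of the 7 was -0.31, against 0.01 over all genes. The share of all genes called was 17.5% with DESeq2 size factors, 18.3% with upper quartile scaling, 18.9% with library size only, 17.3% with limma-voom, 18.0% with the newer edgeR fit and 23.5% with DESeq2. It was 16.8% with every gene that had a count, 22.9% where genes had to average 5 CPM or more, and 41.3% with the replicate number as a block. Without DMSO replicate 1 or 2 it was 21.3% or 12.8%, and without ACBI1 replicate 1 or 2 it was 6.89% or 8.84%.

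**Figure D1:**
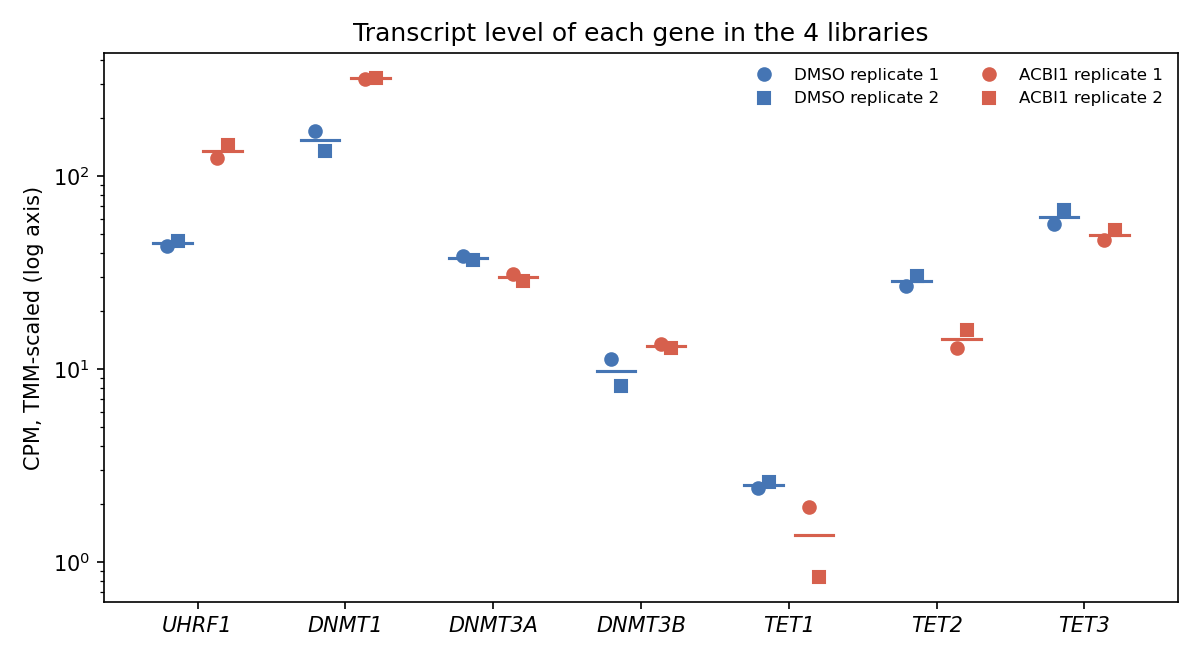
Transcript level in TMM-scaled CPM (log axis) of the 7 genes in each library, with DMSO in blue, ACBI1 in red, circles for replicate 1, squares for replicate 2 and bars for the group means. UHRF1 and DNMT1 are higher in both ACBI1 libraries, TET2 is lower in both, and the ACBI1 libraries of TET1 lie far apart (1.94 and 0.839 CPM).

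UHRF1 had the largest change of the 7. It was at 43.5 and 46.3 CPM in DMSO replicates 1 and 2 and at 124 and 145 CPM in ACBI1 replicates 1 and 2, so that the lowest ACBI1 library was far above the highest DMSO library. The log2 change was 1.58 (SE 0.17), or 3.0-fold with a 95% interval from 2.26 to 3.97, and the edgeR adjusted p was 0.00455. UHRF1 was called in each of 4 fits that left out 1 library, with log2 changes from 1.45 to 1.70. Its rank among the 19159 genes was 280 by p-value and 616 by size of rise.

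DNMT1, the maintenance methyltransferase, was the most abundant of the 7 in CPM. It was at 172 and 134 CPM with DMSO and at 318 and 322 CPM with ACBI1, where the replicates were close to each other and both lay above DMSO. The log2 change was 1.07 (SE 0.19), or 2.09-fold with a 95% interval from 1.52 to 2.87, and the edgeR adjusted p was 0.0171. The change was of like size but not called without ACBI1 replicate 1 (1.08, adjusted p 0.0589) and without ACBI1 replicate 2 (1.05, adjusted p 0.0570); over the 4 fits without a library the adjusted p ran from 0.00294. Per kilobase of exon, the ratio of DNMT1 to UHRF1 transcripts was 2.08 and 1.52 with DMSO and 1.35 and 1.16 with ACBI1.

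Many S-phase genes were also higher with ACBI1. Of 20 genes for DNA replication and nucleotide supply, all of them tested, 14 were called higher and 0 lower, and the median log2 change was 1.40. Over all genes tested 6.75% were called higher and 10.6% lower. E2F1, an activator of S-phase genes, was at 49.2 and 37.4 CPM with DMSO and at 149 and 180.2 CPM with ACBI1. TYMS, which makes thymidylate, had a log2 change of 1.88, the helicase subunits MCM3 and MCM5 had 1.74 and 1.72, and CHAF1B, which loads histones behind the fork, had 1.74, with edgeR adjusted p from 0.00384 to 0.00784 over these 5 genes. Exons of other genes cover 46.6% of the exonic length of TYMS. RRM2 (0.52) and FEN1 (0.79) were not called, with adjusted p of 0.128 and 0.0561; FEN1 was called in 5 of 9 fits with other settings (adjusted p 0.00218 to 0.0611). Both were called in 1 of the 4 fits without a library, that without DMSO replicate 1 (adjusted p 0.0338 and 0.0154).

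The summed level of the 20 S-phase genes was 917 and 707 CPM with DMSO and 2070.2 and 2175 CPM with ACBI1. Per 100 CPM of that sum, UHRF1 stood at 4.74 and 6.56 CPM with DMSO and at 5.97 and 6.69 CPM with ACBI1, so the groups overlapped. On the same scale DNMT1 stood at 18.7 and 19 CPM with DMSO and at 15.3 and 14.8 CPM with ACBI1, lower in both ACBI1 libraries. Also per 100 CPM of the sum, DNMT3B stood at 1.23 and 1.15 CPM with DMSO and at 0.653 and 0.586 CPM with ACBI1. TET2 stood at 2.93 and 4.32 CPM against 0.625 and 0.733 CPM. Because the sum rose, a gene that rose less is lower on this scale. That holds for DNMT3B, whose mean was 9.73 CPM with DMSO and 13.1 CPM with ACBI1 before the division. These ratios were not tested; an exact two-sided permutation test of 2 libraries against 2 has 0.333 as its smallest p. The part of cell cycle in the rise of UHRF1 and DNMT1 was not tested. Of 15 S-phase genes with a RefSeq window, 10 held a string of the E2F kind, as did 5 of 10 maintenance partners. The share over all genes with a window was 3.99%. Such a string was in 2 of 11 methyl donor genes, 1 of 11 repair genes and 1 of 11 CpG readers. Among germline genes 1 of 18 held it, and among imprinted genes 2 of 8. Of 7 genes tied to de novo methylation and 9 for TET cofactors, 0 held it. Any part of E2F factors in the changes was not tested.

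The genes most like each changed gene were sought among 11159 others with a mean of at least 5 CPM, by Euclidean distance of mean-centred log2 CPM over the 4 libraries. Nearest to UHRF1 were NUDT1 (distance 0.0402), which clears oxidised nucleotides, the repressive E2F factor E2F8 (0.102) and NBEAL2 (0.104). Nearest to DNMT1 were SFXN4 (0.0406), ZGRF1 (0.050) and RANBP1 (0.0519), a regulator of the Ran cycle. Nearest to TET2 were ATP6AP2 (0.0482), NCOA4 (0.0506), the receptor for ferritin breakdown, and YIPF2 (0.0564). With 4 libraries in 2 groups such nearness rests mainly on the size of the change, which was 1.52 to 1.64 on the log2 scale for the neighbours of UHRF1, 1.03 to 1.11 for those of DNMT1 and -1.01 to -0.95 for those of TET2.

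The de novo methyltransferases did not pass the test, which held no replicate block. With the replicate number as a block, edgeR called DNMT3A (adjusted p 0.0496) and not DNMT3B (adjusted p 0.0611). That fit called 41.3% of all genes. DNMT3A was at 38.5 and 36.7 CPM with DMSO and at 31.1 and 28.6 CPM with ACBI1, lower in both ACBI1 libraries. Its log2 change was -0.33 (SE 0.16, 95% interval -0.71 to 0.05, edgeR adjusted p 0.193). DNMT3B was at 11.3 and 8.15 CPM with DMSO and at 13.5 and 12.8 CPM with ACBI1, where the DMSO libraries spread more than the ACBI1 libraries. Its log2 change was 0.43 (SE 0.24, 95% interval -0.16 to 1.03, edgeR adjusted p 0.268), with 0.69 and 0.21 as the highest and lowest values when a library was left out. The intervals leave room for a fall of DNMT3A to 0.61-fold and for a rise of DNMT3B to 2.04-fold. The ratio of DNMT3A to DNMT3B per kilobase of exon was 1.31 and 1.74 with DMSO and 0.887 and 0.865 with ACBI1. Transcripts that code for active and inactive forms of DNMT3B are counted together here.

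All 3 TET genes had a negative log2 change, and only TET2 was called. It was at 26.9 and 30.5 CPM with DMSO and at 12.9 and 15.9 CPM with ACBI1, and the groups were well apart. The log2 change was -0.99 (SE 0.20), or 0.50-fold with a 95% interval from 0.36 to 0.70, and the edgeR adjusted p was 0.0230. Without ACBI1 replicate 1 it was -0.84 and not called (adjusted p 0.126), and the other 3 fits without a library called it, with adjusted p from 0.0105. In bulk RNA, fewer cells with the transcript and less transcript per cell cannot be told apart.

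TET3 was the most abundant TET gene, at 56.7 and 66.4 CPM with DMSO and at 46.7 and 52.5 CPM with ACBI1. Its log2 change was -0.31 (SE 0.17, 95% interval -0.71 to 0.09, edgeR adjusted p 0.239), lower in both ACBI1 libraries but not called. TET1 was rare, with 196 and 186 counts in the DMSO libraries and 174 and 55 in the ACBI1 libraries, or 2.41 and 2.59 CPM against 1.94 and 0.839 CPM. Its log2 change of -0.84 (SE 0.46, 95% interval -1.96 to 0.29, edgeR adjusted p 0.256) depended on the ACBI1 library kept: leaving out ACBI1 replicate 2 gave -0.37, and leaving out ACBI1 replicate 1 gave -1.56. The difference between the change of TET2 and those of TET1 and TET3 was not tested. Under each scaling tried all 3 TET genes had a negative log2 change.

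**Figure D2:**
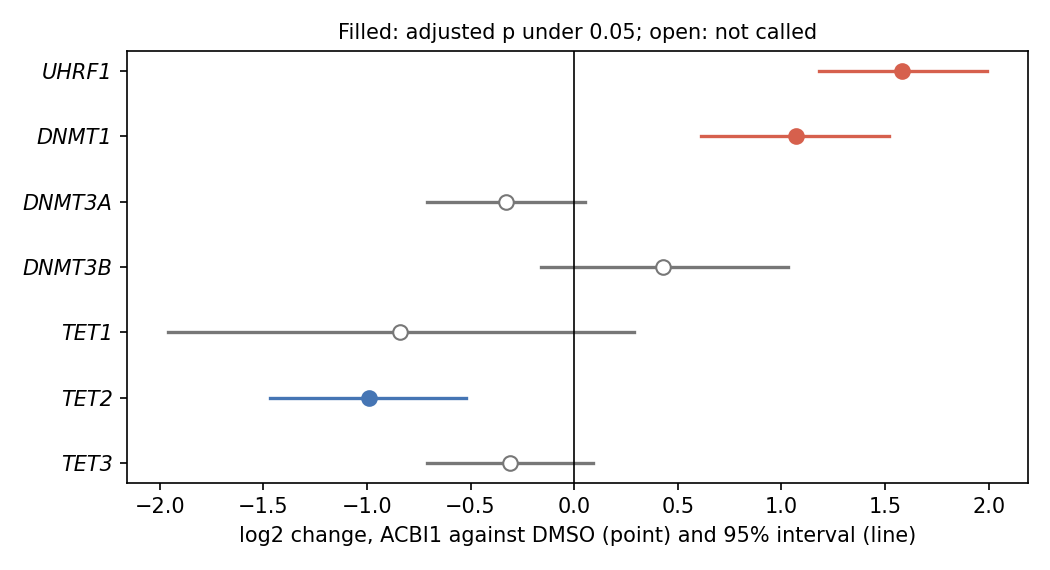
Log2 change between ACBI1 and DMSO of each gene (point) with its 95% interval from the edgeR fit (line), filled where the adjusted p was under 0.05. The intervals of UHRF1 and DNMT1 lie above 0 and that of TET2 below 0, while those of the other 4 genes include 0.

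Levels of different genes were compared per kilobase of exon (RPKM, on TMM-scaled libraries and GENCODE 29 exon lengths). With DMSO the order was DNMT1 at 15.6 ± 2.73 RPKM, UHRF1 at 8.73 ± 0.396, TET3 at 5.02 ± 0.561, DNMT3A at 3.13 ± 0.101, DNMT3B at 2.1 ± 0.485, TET2 at 1.74 ± 0.154 and TET1 at 0.269 ± 0.0136 RPKM (SD, n = 2 for each). DNMT3B and TET2 changed places between the DMSO replicates, and the other neighbours kept their order in both. With ACBI1 DNMT1 reached 32.7 ± 0.338 RPKM and UHRF1 26.1 ± 2.99 RPKM, next came TET3 at 4.04 ± 0.331 RPKM, and TET1 stayed last at 0.150 ± 0.0841 RPKM (SD, n = 2). DNMT3B at 2.84 ± 0.117 RPKM stood above DNMT3A at 2.49 ± 0.146 RPKM with ACBI1 (SD, n = 2), the reverse of the order with DMSO, and did so in both libraries. Levels and part of the order rest on the length used. Per kilobase of the longest transcript in place of the union of exons, DNMT1 was at 28.3 RPKM with DMSO and 59.2 RPKM with ACBI1. With that length TET2 (2.82 RPKM) stood above DNMT3B (2.24 RPKM) with DMSO, and DNMT3A (3.15 RPKM) above DNMT3B (3.03 RPKM) with ACBI1, while DNMT1, UHRF1, TET3 and TET1 kept their places.

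Writer and eraser transcripts were then summed in each library. DNMT1, DNMT3A and DNMT3B summed to 23.2 and 18.5 RPKM with DMSO and to 37.9 and 38.0 RPKM with ACBI1. TET1, TET2 and TET3 summed to 6.51 and 7.54 RPKM with DMSO and to 4.8 and 5.33 RPKM with ACBI1. The ratio of these sums was 3.56 and 2.45 with DMSO and 7.90 and 7.13 with ACBI1, and the groups did not overlap in either sum or in the ratio. DNMT1 supplied 75.7% and 74.0% of the DNMT sum with DMSO and 85.5% and 86.5% with ACBI1. TET2 supplied 25.1% and 24.5% of the TET sum with DMSO and 16.4% and 18.1% with ACBI1. The sums and their ratio were not tested, and they describe transcripts, not enzyme amounts or methylation.

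**Figure D3:**
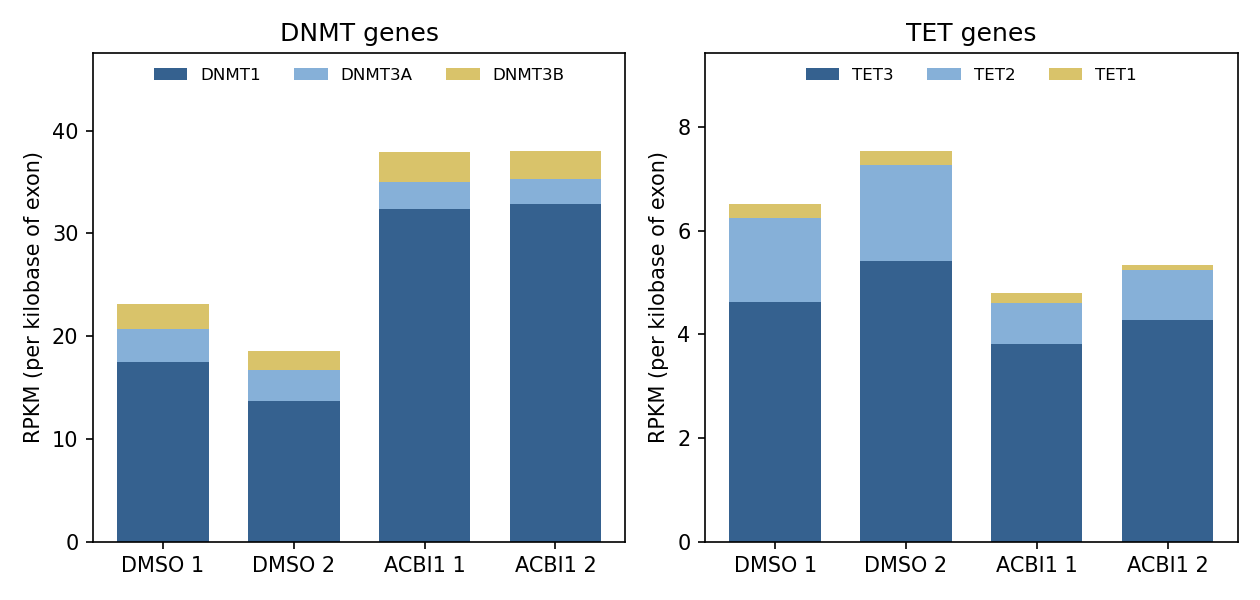
Summed RPKM (TMM-scaled CPM per kilobase of exon) of the DNMT genes (left) and the TET genes (right) in each library, stacked by gene, with axes from 0 that differ between the panels. The DNMT sum is about 38 in both ACBI1 libraries against 23.2 and 18.5 with DMSO, mainly through DNMT1, and the TET sum is lower with ACBI1.

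Among partners of maintenance methylation, 9 of 10 genes were tested, of which 4 were called higher, 0 lower and 5 were not called. The share over all genes was 6.75% called higher and 10.6% lower. The median log2 change of the 9 was 1.23. CDCA7L, a relative of the chromatin factor CDCA7, went from 20.5 and 17.7 CPM to 63.6 and 60.1 CPM, with exons of DNAH11 over 20.4% of its exonic length. HELLS, the remodeller that opens nucleosomes for DNMT1, went from 15.6 and 18.0 CPM to 50.8 and 53.7 CPM. LIG1, the ligase whose methylated tail UHRF1 binds, went from 21.1 and 16.8 CPM to 65.7 and 50.6 CPM. PCNA, the sliding clamp that also docks DNMT1, went from 26.2 and 29 CPM to 60.4 and 69.1 CPM. These 4 genes had log2 changes of 1.70, 1.64, 1.62 and 1.23, with edgeR adjusted p from 0.00384 to 0.00797. In the fits without a library their log2 changes lay between 1.12 and 1.81. Their groups did not overlap, which was also so in 63.2% of all genes tested, in either direction. USP7, which removes ubiquitin from DNMT1 and UHRF1, and ZBTB24, which activates CDCA7, were not called (log2 changes 0.43 and 0.48, adjusted p 0.147 and 0.113). DPPA3, an inhibitor of UHRF1, had 0 counts in each library.

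Genes tied to de novo methylation did not pass the test. Of 9 genes 7 were tested and none was called by edgeR, with a median log2 change of -0.00, and none by DESeq2. Over all genes edgeR called 17.4% and DESeq2 23.5%. With the replicate number as a block, edgeR called 3 higher and 1 lower, where 41.3% of all genes were called. TRIM28, the corepressor that zinc finger proteins bind, was at 509 and 420.4 CPM with DMSO and at 655 and 589 CPM with ACBI1 (log2 change 0.42, edgeR adjusted p 0.173). NSD1, which makes a histone mark that DNMT3A reads, was at 134 and 134 CPM against 119.7 and 131 CPM (log2 change -0.09, adjusted p 0.723). DNMT3L, the inactive cofactor of DNMT3A and DNMT3B in germ cells, had 1 count in each DMSO library and 0 in both ACBI1 libraries.

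Genes that supply the methyl donor S-adenosylmethionine went both ways. All 15 were tested, 4 were called higher and 2 lower, and the median log2 change was 0.36. Over all genes tested the share called was 17.4%. MAT2A, which makes the donor, went from 632 and 508 CPM to 1040.3 and 1020.3 CPM (log2 change 0.85, edgeR adjusted p 0.0319), with 12.4% of its exonic length shared with GGCX. AHCY, which clears the product that inhibits methyltransferases, went from 315 and 270.2 CPM to 579 and 494 CPM (log2 change 0.88, adjusted p 0.0282). Both MAT2A and AHCY were called in 1 of the 4 fits without a library, that without DMSO replicate 1, with adjusted p up to 0.125 and 0.141. MAT1A, the liver form of MAT2A, rested on 2 counts over both DMSO libraries and 63 over both ACBI1 libraries. The ratio per library size was 31.2 (exact 95% counting limits 8.27 and 263), and every library was under 1 CPM. Its call (adjusted p 0.0334) was lost without ACBI1 replicate 1 (adjusted p 0.172).

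Among the falls of this list, NNMT, which uses up methyl groups on nicotinamide, went from 52.1 and 98.5 CPM to 24.3 and 31.7 CPM (log2 change -1.43, edgeR adjusted p 0.0334). Without ACBI1 replicate 1 it was -1.24 and not called (adjusted p 0.114), and without DMSO replicate 2 it was -0.90 and called (adjusted p 0.0274). SHMT2, a mitochondrial source of folate carbon, went from 441 and 349 CPM to 192 and 236 CPM (log2 change -0.89, adjusted p 0.0348), and was called only without DMSO replicate 2 among the fits without a library, with adjusted p up to 0.186. AHCYL1 (-0.49, adjusted p 0.0798) and MTRR (0.30, adjusted p 0.263) were the most abundant genes of the list that were not called.

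Among 11 genes for TET cofactors and regulators, all tested, 2 were called higher and 1 lower, with a median log2 change of 0.06. Over all genes tested 17.4% were called. IDH1, the cytosolic enzyme that makes 2-oxoglutarate, the cosubstrate of the TET enzymes, went from 256 and 233 CPM to 102 and 82.9 CPM. Its log2 change was -1.40 (SE 0.18, edgeR adjusted p 0.00753), and it was called in each fit without a library. IDH2, the mitochondrial form, was at 58.1 and 62.8 CPM against 75.4 and 65.9 CPM (log2 change 0.22, adjusted p 0.368). QSER1, a protein that protects sites from DNMT3 enzymes, changed by 0.65 on the log2 scale (adjusted p 0.0373) and was called only without DMSO replicate 1 among the fits without a library (adjusted p up to 0.168). OGT, a partner of the TET enzymes, varied within groups (460.4 and 204 CPM with DMSO, 409.5 and 286 CPM with ACBI1) and was not called (log2 change 0.07, adjusted p 0.926). Leaving out DMSO replicate 1 gave 0.77, and leaving out DMSO replicate 2 gave -0.41, neither of them called.

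Genes that remove and repair oxidised or deaminated bases went both ways. All 15 were tested, 3 were called higher and 1 lower, and the median log2 change was -0.22. The share called over all genes was 17.4%. UNG, which removes uracil from DNA, went from 48.4 and 43.1 CPM to 186 and 173 CPM (log2 change 1.97, SE 0.16, edgeR adjusted p 0.00259). NEIL2, a glycosylase for oxidised bases, went from 16.7 and 11.5 CPM to 48.8 and 60.8 CPM (log2 change 1.96, adjusted p 0.00665). Both were called in each fit without a library. NEIL3 had a log2 change of 1.31 (adjusted p 0.0323), lost without ACBI1 replicate 2 (adjusted p 0.141). NEIL1 fell from 1.6 and 2.52 CPM to 0.514 and 0.732 CPM (log2 change -1.73, adjusted p 0.0394), with 30.5% of its exonic length shared with other genes and a call only without DMSO replicate 1 among the fits without a library (adjusted p up to 0.163). TDG, the glycosylase that cuts out the products of TET enzymes, was at 47.8 and 38.4 CPM against 30.8 and 33.3 CPM (log2 change -0.43, adjusted p 0.148), and is named here after its value was seen. PARP1 (0.49, adjusted p 0.116) and APEX1 (0.36, adjusted p 0.268) were not called.

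Of 12 readers of methylated or unmethylated CpG, 1 was called higher and 1 lower, a share close to the 17.4% of all genes, and the median log2 change was -0.17. KDM2B, which binds unmethylated CpG islands, went from 58.9 and 49.6 CPM to 94.9 and 101 CPM (log2 change 0.85, edgeR adjusted p 0.0220). ZBTB38, a zinc finger protein that binds methylated CpG, went from 77.1 and 113 CPM to 42.4 and 55.0 CPM (log2 change -0.97, adjusted p 0.0432), and lost its call when libraries were scaled by size alone (adjusted p 0.0516, the highest of 9 settings that began at 4.71e-05). Among the fits without a library both KDM2B and ZBTB38 were called only without DMSO replicate 1, with adjusted p up to 0.0921 and 0.184. KDM2A, a paralog of KDM2B, was at 434 and 481 CPM against 322 and 334 CPM (log2 change -0.48, adjusted p 0.101), and MBD6 had a log2 change of 0.03 (adjusted p 0.940).

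**Figure D4:**
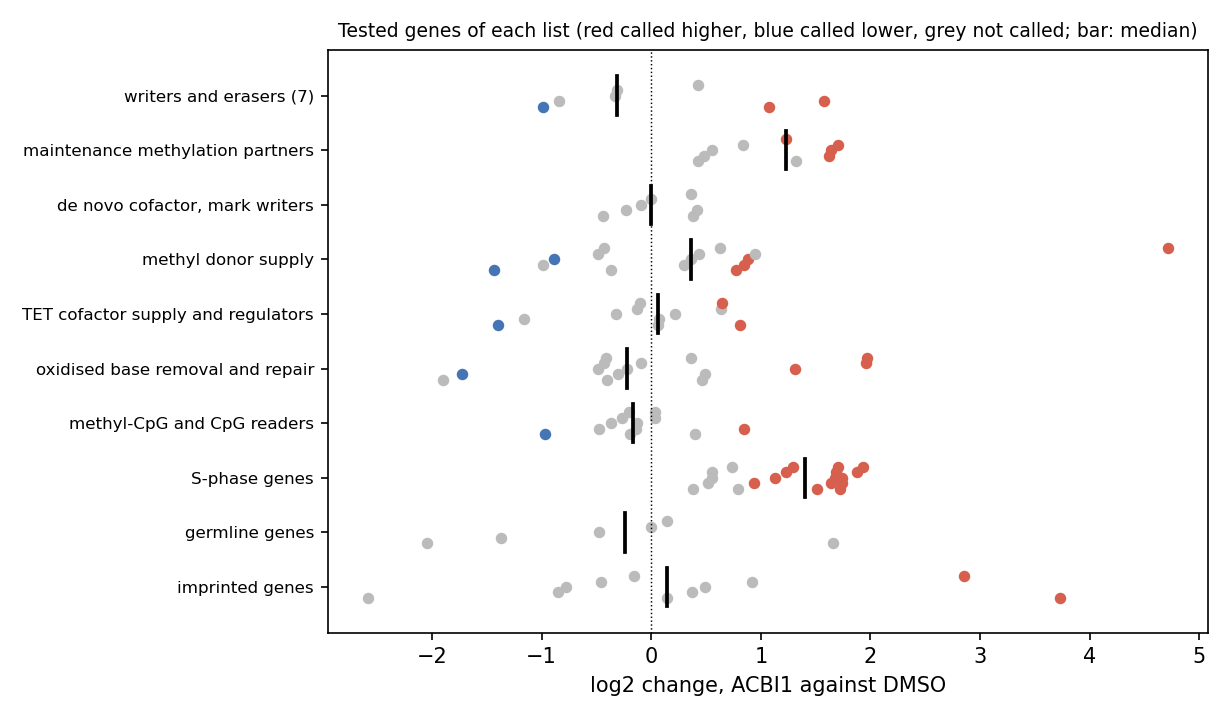
Log2 change between ACBI1 and DMSO of the tested genes of each list, red where called higher, blue where called lower and grey where not called, with a bar at the median of the list. S-phase genes and maintenance partners lie to the right of 0 without exception, and the 7 writers and erasers lie on both sides.

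Genes that depend on DNA methylation for silencing or imprinting were examined last. Of 22 germline genes 16 had too few counts to test, at most 0.139 CPM in any library, and 2 of them had 0 counts in all 4. None of the 6 tested was called by edgeR, and by DESeq2 1 was called lower. Over all genes edgeR called 17.4% and DESeq2 23.5%. CTAG2 was at 5.33 and 4.0 CPM against 5.82 and 3.49 CPM (log2 change -0.00, edgeR adjusted p 0.998), and MAGEC1 at 2.48 and 1.81 CPM against 1.98 and 1.10 CPM (log2 change -0.48, adjusted p 0.471).

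Of 16 imprinted genes 11 were tested, 2 were called higher and 0 lower, a share close to the 17.4% of all genes, with a median log2 change of 0.14. DESeq2 called 3 higher and 2 lower, and edgeR with every gene that had a count did so too. Over all genes these fits called 23.5% and 16.8%. Shares of all genes called in the fits without a library are given with the 7 genes above. Without DMSO replicate 1 or without DMSO replicate 2, edgeR called 2 higher and 1 lower, and without either ACBI1 library 1 higher and 0 lower. IGF2, a growth factor, went from 0.344 and 0.792 CPM to 10.6 and 4.44 CPM, a log2 change of 3.73 (SE 0.61, edgeR adjusted p 0.0140) that was 4.44 without DMSO replicate 2 and 2.98 without ACBI1 replicate 1. The neighbouring noncoding gene H19 went from 0.0614 and 0.0278 CPM to 0.223 and 0.458 CPM, which rested on 5 and 2 counts against 20 and 30. Its log2 change of 2.85 (adjusted p 0.0407) was called only without DMSO replicate 1 among the fits without a library (log2 change 3.52), and was 2.26 without ACBI1 replicate 2, with adjusted p up to 0.211. IGF2 carries 2 gene IDs in GENCODE 29, and at least 75.0% of the exonic length of each overlaps other IDs. The other IGF2 ID is among these, beside INS-IGF2, IGF2-AS and AC132217.1. The part shared with other genes alone was not measured, so the IGF2 count is uncertain. PEG10 (0.92, adjusted p 0.119) and PHLDA2 (-0.46, adjusted p 0.240) were not called. PEG10 was called in 3 of 9 fits with other settings (adjusted p 1.97e-04 to 0.127). Its log2 change was 1.43 without DMSO replicate 2 and 0.54 without DMSO replicate 1. Methylation itself was not analysed here.

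**Figure D5:**
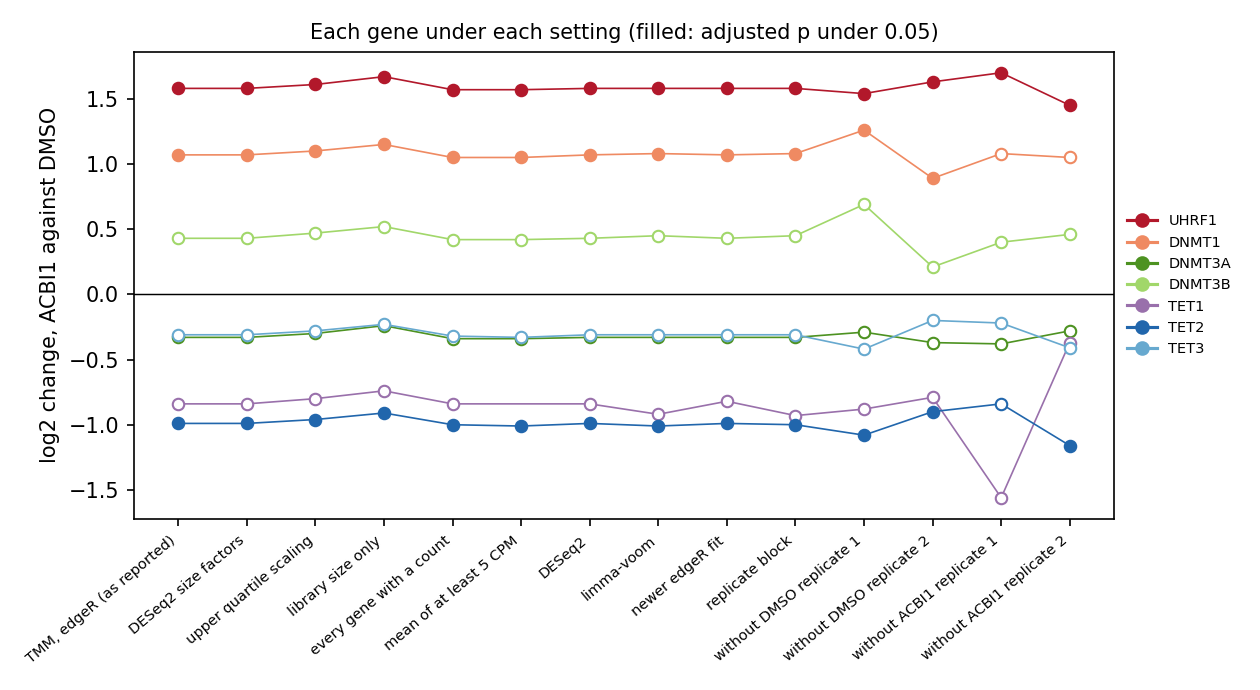
Log2 change between ACBI1 and DMSO of the 7 genes under each scaling, filter, tool and design and with each library left out, filled where the adjusted p was under 0.05. Each gene keeps its sign throughout, UHRF1 is filled in every setting, and DNMT1 and TET2 are open in some fits without an ACBI1 library.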

How the data were processed

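RNA-seq counts of 4 libraries were analysed, and group and replicate were taken from the sample titles. The authors deposited raw counts per gene symbol, not normalized; the submitters' processing notes name TopHat2 2.1.1, HTSeq 0.11.0 and the hg38 build. The annotation and strand setting are not given in the sources used here, and the library kit named in the labels is sold for DNA. The 5 closing lines of each file, for reads given to no gene, were left out; gene counts made up 84.6% to 86.1% of reads listed. Genes were filtered with filterByExpr (minimum count 10, minimum total 15), scaled by TMM and tested two-sided with edgeR 4.0.16 (glmQLFit, legacy fit, treatment only) in R 4.3.3; the script was tested on simulated counts. DESeq2 1.42.0 and limma 3.58.1 (voom) were alternatives, with other scalings and filters, a replicate block and each library left out. SE is the change divided by the root of F. Exon lengths and overlaps came from GENCODE 29, in which 155 of 156 listed genes matched 1 ID. Counting intervals and floors (3 counts) cover counting error only. The 7 genes and the lists were chosen with earlier results of these data known. Named were the 7 genes, in each list at most 5 called genes with the largest change and the 2 most abundant not called, and 3 neighbours in pattern. A gene that this rule names is not reported here.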

Additional observations from a re-analysis of the deposited data

How the results depend on the processing

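All 7 genes kept the sign of their log2 change in every fit, and UHRF1 was called in all of them. DNMT1 ranged from 0.89 to 1.26 and TET2 from -1.16 to -0.84 with 1 library left out, where an arm of 1 library is assumed to vary like the other group. In those fits the number of the 7 genes called higher ranged from 1 to 2, the number called lower from 0 to 1, and the number of all genes called from 1379 to 4292. TET1 was not in the table with a mean of at least 5 CPM. With every gene that had a count, 5518 genes were called. With the replicate number as a block, 7909 genes were called, all 3331 of the fit without a block among them, and 2 of the 7 genes were lower, since DNMT3A (log2 change -0.33) had an adjusted p of 0.0496. Genes given above as not called that were called with the block include RRM2, USP7, ZBTB24, TRIM28, AHCYL1, PARP1 and KDM2A. The labels do not say that a number marks a shared batch, although the differences between replicates correlated across genes between the groups (Pearson's r 0.61 over 11160 genes, which are not independent). For sums of RPKM in 2 libraries per group, leaving out 1 library must move the log2 change by less than the spread between replicates. Rescaling a library cannot move the ratio of the sums, so neither check could have failed there. The log2 changes of the RPKM sums and of their ratio, which were not tested, moved by less than this spread in each setting. The levels moved beyond it with the longest transcript as length, which was added for the sums after seeing the data: the DNMT sum was then 34.5 RPKM with DMSO and 65.3 RPKM with ACBI1, and the DNMT to TET ratio 4.11 and 11.1. Of 234 counts for the other lists under alternatives, 182 were within 1.5 times of the count given. For TET1, with 55 counts in ACBI1 replicate 2, depth and spread limit what can be detected.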
